A study of Mus musculus with 12 samples.

Results

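The major histocompatibility complex (MHC) class II genes were followed through peritoneal exudate cells, a mixture of cell types washed out of the mouse abdominal cavity, on single-colour Agilent arrays. The set comprised 10 named genes: the classical chains H2-Aa, H2-Ab1, H2-Ea and H2-Eb1, the invariant chain Cd74, the peptide editor chains H2-DMa, H2-DMb1 and H2-DMb2, and the modulator chains H2-Oa and H2-Ob. Members were taken by the gene name that the scanner files give to each probe that is not a control. They had 16 probes, of 41174 on the array, and 10 of the 18274 genes with a probe that passed the filter on dim signals. All 16 passed that filter, 15 of them because they stood well above background on all 12 arrays. The H2-Ea probe did so on the 6 wild-type arrays and on no Ifnar2-/- array. No member probe was saturated.

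The study set out to measure gene expression induced by interferon beta (IFN-β) in mice with and without Ifnar2, a subunit of the type I interferon receptor. The 4 groups of 3 arrays were Ifnar2-/- mice given IFN-β, Ifnar2-/- mice given PBS, wild-type mice given IFN-β and wild-type mice given PBS. IFN-β was given into the peritoneum at 10000 IU/ml, PBS is the saline control, and cells were taken 3 h later. All mice were females of 8 weeks, and the labels give both genotypes the same strain, 129S2/SvPas*BALB/c. Per the series' design, every array came from a different mouse and each treatment was run as 3 independent experiments.

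MHC class II molecules are paired alpha and beta chains that carry peptides from the endocytic pathway to CD4+ T cells. B cells, dendritic cells and some macrophages make them, and the peritoneal cavity is rich in B cells and macrophages. In the endoplasmic reticulum the pairs are held by Cd74, whose remnant is later exchanged for a peptide with the help of H2-DM, which H2-O restrains. Transcription of the family is controlled by the coactivator Ciita on promoters that carry conserved X and Y boxes bound by the RFX, CREB and NF-Y proteins. The classical chains are among the most variable genes of the mouse. Strains of the b haplotype, to which 129S2/SvPas belongs, make no H2-Ea transcript because its promoter is deleted, while BALB/c mice, of the d haplotype, make one.

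An array reads a gene through a 60-base probe, and several members have more than 1. The sequences shown are those whose readings turned out to differ by genotype or to differ between probes of 1 gene, with H2-Eb1 as a gene whose reading did not differ. They run 5′ to 3′ as the scanner files list them. Capitals in the 2 H2-Ab1 probes that share a stretch mark the bases at which they disagree.
H2-Ea A_51_P222741: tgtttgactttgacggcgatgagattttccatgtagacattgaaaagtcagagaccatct
H2-Aa A_51_P119760: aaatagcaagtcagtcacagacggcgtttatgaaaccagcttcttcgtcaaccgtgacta
H2-Aa A_52_P343306: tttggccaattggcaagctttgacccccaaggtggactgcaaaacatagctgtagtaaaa
H2-Ab1 A_51_P215237: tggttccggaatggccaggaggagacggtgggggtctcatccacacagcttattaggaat
H2-Ab1 A_51_P215242: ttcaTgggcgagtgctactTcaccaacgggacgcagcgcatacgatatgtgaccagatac
H2-Ab1 A_52_P570717: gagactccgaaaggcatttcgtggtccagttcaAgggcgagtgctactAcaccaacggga
H2-Eb1 A_51_P393226: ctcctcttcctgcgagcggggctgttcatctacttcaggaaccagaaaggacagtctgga
The last 31 bases of A_52_P570717 overlap the first 31 of A_51_P215242 with 2 differences, A34T and A49T, counted from 1 at the 5′ end of A_52_P570717. In the array design's genome build, mm7, the H2-Ea probe lies at chr17:32421735-32421794, within the H2 complex on chromosome 17. H2-Aa A_52_P343306 lies at chr17:32362310-32362369, H2-Ab1 A_51_P215237 at chr17:32345268-32345327 and H2-Ab1 A_51_P215242 at chr17:32342603-32342662. The H2-Eb1 probe spans chr17:32392430-32392891, so its 60 bases cross at least 1 intron of that build. No annotation of mm7 was used here, so exon numbers are not given.

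All values that follow are log2 signals with the 75th percentile of the same array subtracted, so 0 is that percentile and a difference of 1 is a 2-fold change. A change was called at an adjusted p under 0.05 in limma, over all 27715 probes that passed the filter, and a gene was counted by its brightest probe. Between 59.4% and 62.5% of spots stood well above background on the 4 arrays of slide 3 (Ifnar2-/- replicates 2 and 3 of both treatments), against 65.2% to 71.6% on the other 8. Slide 1 held the 3 wild-type PBS arrays and 1 wild-type IFN-β array, and slide 2 held the other 2 wild-type IFN-β arrays and replicate 1 of both Ifnar2-/- groups, so no slide held PBS arrays of both genotypes. Of the 2 Ifnar2 probes, one read 1.85 lower in Ifnar2-/- than in wild type after PBS (adjusted p = 5.47e-05) and the other 0.96 higher (adjusted p = 0.0149). The labels do not say which part of the gene was removed, so these probes do not settle the genotype.

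**Figure D1:**
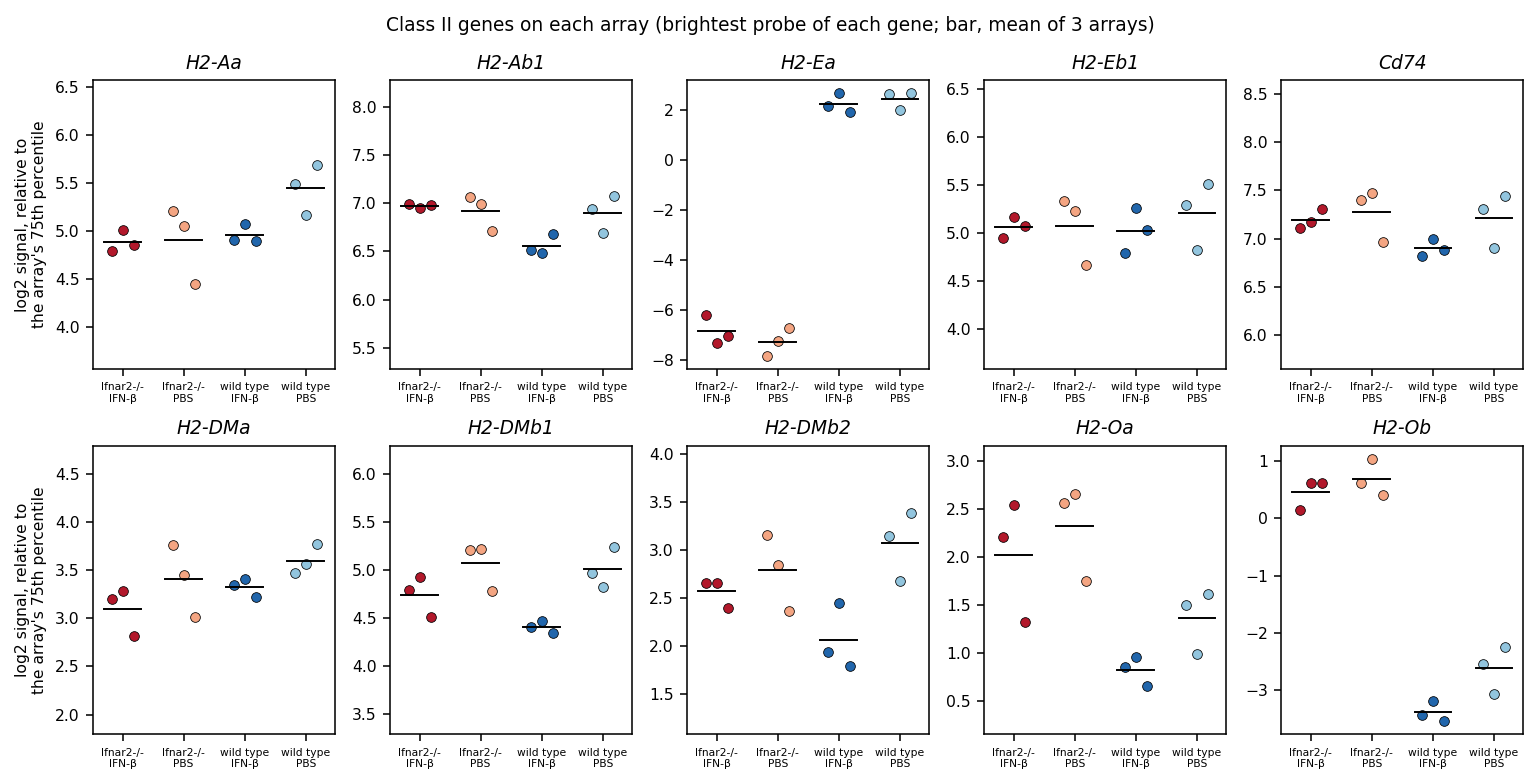
Log2 signal of the brightest probe of each class II gene, relative to the array's 75th percentile (vertical axis, own range in each panel), for the 3 arrays of each group (points) and their mean (bar). H2-Ea lies between -7.83 and -6.18 on the 6 Ifnar2-/- arrays and between 1.94 and 2.67 on the 6 wild-type arrays, and H2-Ob is higher on every Ifnar2-/- array than on every wild-type array.

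The first question was how each genotype answered IFN-β. In wild-type cells all 10 genes had a lower mean after IFN-β than after PBS, by 0.18 to 1.01 with a median of 0.42, but the decline passed the test in 3 of them. H2-DMb2 fell by 1.01, H2-Ob by 0.77 and H2-DMb1 by 0.61. In Ifnar2-/- cells none of the 10 passed. The interaction of genotype and treatment passed for none either, so a difference in response between the genotypes was not shown for any member.

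Among the H2-DM chains, H2-DMb2 encodes one of the 2 mouse DM beta chains. It read 1.94, 2.45 and 1.79 in wild-type cells after IFN-β, against 3.15, 2.68 and 3.38 after PBS. Every IFN-β array lay below every PBS array, a 2.02-fold decline of 1.01 ± 0.25 (SE, adjusted p = 0.0077). Its second probe fell by 1.02 ± 0.31 (SE, adjusted p = 0.0224), a call that was lost without wild-type IFN-β replicate 1 (-0.98, adjusted p = 0.066) or 3 (-0.83, adjusted p = 0.0827) and without PBS replicate 3 (-0.77, adjusted p = 0.0876).

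H2-DMb1, the other beta chain, read 4.4, 4.47 and 4.34 after IFN-β and 4.97, 4.82 and 5.24 after PBS in wild type. The groups did not overlap, and the decline of 0.61 ± 0.17 (SE) passed (adjusted p = 0.0137), but not without PBS replicate 3 (-0.49, adjusted p = 0.0566). The alpha chain H2-DMa was also lower on all 3 IFN-β arrays, 3.35, 3.41 and 3.22 against 3.47, 3.56 and 3.77 after PBS. Its difference of -0.28 did not pass (adjusted p = 0.292). H2-DMb1 and H2-DMb2 are closely related in sequence, so each probe may read some of the other's transcript, which was not tested.

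H2-O is a dimer made mainly by B cells. Its beta chain H2-Ob read -3.43, -3.18 and -3.54 in wild type after IFN-β, against -2.55, -3.06 and -2.25 after PBS. These are low signals, all well above background, and the decline of 0.77 ± 0.23 (SE) passed (adjusted p = 0.0239). With normexp background correction the difference was -0.31 (adjusted p = 0.248). The call was also lost without wild-type IFN-β replicate 1 (-0.75, adjusted p = 0.0674) or 3 (-0.69, adjusted p = 0.0755) and without PBS replicate 1 (-0.73, adjusted p = 0.0676) or 3 (-0.58, adjusted p = 0.0931). The alpha chain H2-Oa differed by -0.54 (adjusted p = 0.215), with 0.85, 0.96 and 0.66 after IFN-β and 1.5, 0.99 and 1.61 after PBS. Its second probe differed by -0.60 (adjusted p = 0.165).

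Of the classical chains none was called by its brightest probe. H2-Aa had a difference of -0.49 by its brightest probe (adjusted p = 0.0744), at 4.91, 5.08 and 4.90 after IFN-β and 5.49, 5.17 and 5.69 after PBS. Its other probe fell by 0.66 (adjusted p = 0.0295), a call that was lost without IFN-β replicate 1 (-0.60, adjusted p = 0.0951) or 3 (-0.60, adjusted p = 0.0876) and without PBS replicate 1 (-0.61, adjusted p = 0.0862) or 3 (-0.54, adjusted p = 0.107). The brightest H2-Aa probe passed instead when wild-type PBS replicate 2 (-0.63, adjusted p = 0.0445) or Ifnar2-/- PBS replicate 3 (-0.49, adjusted p = 0.0258) was left out. All 4 H2-Ab1 probes lay between -0.42 and -0.35, and none passed (adjusted p 0.0631 to 0.231). H2-Ab1's brightest probe read 6.52, 6.48 and 6.68 after IFN-β, against 6.94, 6.69 and 7.08 after PBS, without overlap.

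For H2-Ea the 3 wild-type IFN-β arrays (2.16, 2.67 and 1.94) overlapped the 3 PBS arrays (2.64, 2.00 and 2.67), a difference of -0.18 with a 95% interval of -0.97 to 0.60. H2-Eb1, its beta partner, also differed by -0.18 (95% interval -0.67 to 0.30). Cd74 read 6.82, 7 and 6.88 after IFN-β and 7.31, 6.90 and 7.44 after PBS, a difference of -0.32 ± 0.17 (SE, adjusted p = 0.171). The intervals of H2-Ea and H2-Eb1 include changes in either direction.

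Against these 3 of 10 member genes, or 5 of 16 member probes, 40% of all probes were called in wild type, 21.5% lower and 18.5% higher. No member was called higher. The groups did not overlap, with IFN-β lower, for 10 of 16 member probes and 28.7% of all probes, and with IFN-β higher for no member probe and 25.5% of all probes. The median over all probes was -0.04. In a 1 against 3 comparison on slide 1 alone, all 16 member probes were below 0, with a median of -0.51. These arrays are part of the main fit and the members vary together, so the shared sign adds no independent evidence. With slide as a fixed block only H2-DMb2 kept its call (-1.14, adjusted p = 0.0439).

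In Ifnar2-/- cells the differences between IFN-β and PBS ran from -0.33 for H2-DMb1 to 0.42 for H2-Ea, which is a difference between background readings, and their median was -0.14. H2-DMb2 read 2.66, 2.66 and 2.4 after IFN-β and 3.16, 2.84 and 2.37 after PBS, which overlap. Of all probes, 1.11% were called in this genotype by limma, and 18.4% had an unadjusted p under 0.05, but no member probe did. No member probe had groups without overlap, against 11.4% of all probes lower and 11.9% higher after IFN-β. The arrays of slide 2 and slide 3 differed here. On slide 2, with 1 array of each treatment, 15 of 16 member probes were lower after IFN-β (median -0.42). On slide 3, with 2 of each, 9 of 16 were lower (median -0.04).

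The response of Ifnar2-/- cells minus that of wild-type cells was above 0 for 15 of 16 probes, with a median of 0.34 over genes against 0.04 over all probes. The count and the median take in H2-Ea (0.61), whose Ifnar2-/- readings were at background. H2-DMb2 had the highest value, 0.80 ± 0.35 (SE, 95% interval 0.03 to 1.57, adjusted p = 0.153). Of all probes, 17.7% passed this interaction test in limma. An unadjusted p under 0.05 was found for 1 member probe, that of H2-DMb2, and for 30% of all probes. Both responses share their arrays with it, so the shared sign of the members adds no independent evidence.

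**Figure D2:**
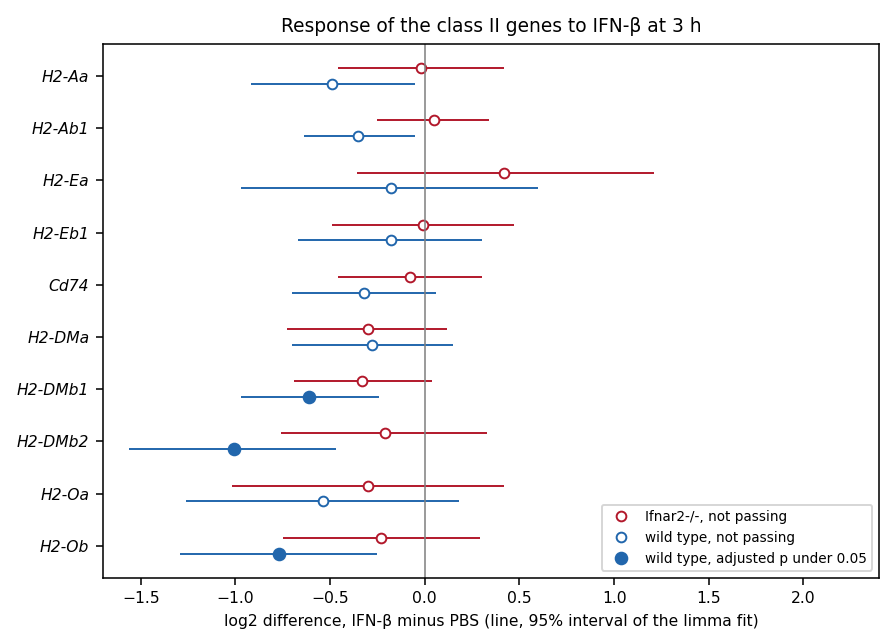
Log2 difference, IFN-β minus PBS (horizontal axis), for the brightest probe of each class II gene in Ifnar2-/- (red, upper of each pair) and wild-type cells (blue, lower of each pair), with the 95% interval of the limma fit as a line; filled points have an adjusted p under 0.05. Every wild-type value lies below 0 and 3 are filled, H2-DMb1, H2-DMb2 and H2-Ob, while no Ifnar2-/- value is filled.

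The regulators of class II transcription did not move as 1 group. Of 16 listed genes, 7 rose and 4 fell in wild-type cells given IFN-β, and none was called in Ifnar2-/- cells. Of all probes, 18.5% were called higher and 21.5% lower in wild type, and 1.11% were called in Ifnar2-/- cells. Ciita, the coactivator on which the family depends, differed by -0.21 ± 0.22 (SE, adjusted p = 0.501), at a mean of 2.48 after IFN-β and 2.68 after PBS. Among the RFX subunits, Rfx5 rose by 0.56 (adjusted p = 0.0239), Rfxank fell by 0.71 (adjusted p = 0.000539) and Rfxap differed by -0.10 (adjusted p = 0.495). Creb1, of the X-box binding proteins, fell by 1.08 (adjusted p = 0.000414). Irf4, a factor of B cells and some dendritic cells, fell by 1.37, and the interferon gamma receptor chain Ifngr1 fell by 1.14. Among those that rose were the interferon-induced factor Irf1 (2.69), Irf8 (0.99), Irf2 (0.94), the myeloid and B cell factor Spi1 (0.62) and the NF-Y subunit Nfyc (0.40). The interaction passed for 8 of the 16, against 17.7% of all probes. Among the 8 were Irf1 (-2.42), Irf2 (-1.7), Irf4 (1.42) and Rfxank (0.60), and the interaction of Ciita was 0.02 (adjusted p = 0.979).

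Genes that process antigen or turn class II molecules over were divided too, with 3 of 18 higher and 2 lower in wild type. That is 27.8% of the list, no more than the 40% of all probes that were called. Sppl2a, the protease that clears the membrane stub of Cd74, rose by 1.88 ± 0.12 (SE, adjusted p = 8.49e-07), at a mean of 4.36 after IFN-β and 2.48 after PBS. Marchf1, the ubiquitin ligase that sends class II molecules for degradation, rose by 0.58 (adjusted p = 0.00991), and the cathepsin Ctsz rose by 0.65 (adjusted p = 0.00833). Ifi30, the lysosomal thiol reductase, fell by 0.54 (adjusted p = 0.00564) and the tetraspanin Cd81 fell by 0.55 (adjusted p = 0.00917). Ctss, which trims Cd74, differed by 0.26 (adjusted p = 0.113), Lgmn by 0.11 (adjusted p = 0.762), Marchf8 by 0.24 (adjusted p = 0.283) and Cd83, which opposes Marchf1, by -0.52 (adjusted p = 0.222). The interaction passed for Sppl2a (-1.74, adjusted p = 5.52e-05) and Marchf1 (-1.27, adjusted p = 0.00194). Class I genes and their peptide loading partners were called higher for 12 of 17 in wild type and for none in Ifnar2-/- cells. Of all probes, 18.5% were called higher in wild type, and 1.11% were called in either direction in Ifnar2-/- cells.

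The second question was how the genotypes differed at each treatment. H2-Ea differed most among the members and was low in Ifnar2-/- cells. It measured -7.83, -7.25 and -6.74 in Ifnar2-/- cells after PBS, against 2.64, 2.00 and 2.67 in wild type. The Ifnar2-/- readings were not well above background. Taking each array's lowest signal well above background as the bound, the signal was at least 284-fold lower there. This bound holds for the main processing only. Over the alternatives run, the difference after PBS lay between -10.27 and -5.97. Since H2-Ea is in the set for its absence at baseline, this difference is a description without a test at either treatment. After IFN-β the values were -6.18, -7.33 and -7.03 in Ifnar2-/- cells and 2.16, 2.67 and 1.94 in wild type, at least 228-fold lower by the same bound. Over the alternatives this difference lay between -9.44 and -5.75. The labels give 1 strain name for both genotypes, and do not say which H2 haplotype each mouse carried.

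H2-Ob went the other way by the reading of its only probe, so no second probe could be set beside it. After PBS it read 0.61, 1.04 and 0.41 in Ifnar2-/- cells, against -2.55, -3.06 and -2.25 in wild type, 9.88-fold higher (3.31 ± 0.23 SE, adjusted p = 2.96e-05). After IFN-β it read 0.14, 0.61 and 0.62 in Ifnar2-/- cells, against -3.43, -3.18 and -3.54 in wild type, 14.4-fold higher (3.84 ± 0.23 SE, adjusted p = 6.19e-07). The gap between the lowest Ifnar2-/- array and the highest wild-type array exceeded 2 at both treatments. Its partner H2-Oa read 2.56, 2.65 and 1.75 in Ifnar2-/- cells after PBS, against 1.5, 0.99 and 1.61 in wild type, without overlap, but the difference of 0.96 did not pass (adjusted p = 0.142). After IFN-β H2-Oa was higher by 1.20 (adjusted p = 0.0139), or by 1.36 with its second probe (adjusted p = 0.00646), although the first of these calls was lost without Ifnar2-/- IFN-β replicate 2 (0.94, adjusted p = 0.0563).

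The probes of H2-Aa gave different answers. A_52_P343306 read 5.51, 5.27 and 4.74 in Ifnar2-/- cells after PBS, against 3.22, 2.77 and 3.38 in wild type, 4.15-fold higher (adjusted p = 0.000322). A_51_P119760 read 5.21, 5.06 and 4.45 in the same Ifnar2-/- cells, against 5.49, 5.17 and 5.69 in wild type, a difference of -0.54 (adjusted p = 0.167). So 1 probe of the gene separated the genotypes and the other did not. After IFN-β the differences were 2.54 (adjusted p = 6.78e-06) and -0.08 (adjusted p = 0.789).

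H2-Ab1 showed the same disagreement among its 4 probes. After PBS, A_51_P215237 was higher in Ifnar2-/- cells by 1.34 (5.77 ± 0.41 in Ifnar2-/- and 4.43 ± 0.22 in wild type, SD, n = 3 each, adjusted p = 0.00241). A_51_P215242 was higher by 0.94 (adjusted p = 0.0316), a call that no longer passed without Ifnar2-/- PBS replicate 1 (adjusted p = 0.0661) or 2 (adjusted p = 0.124), without any 1 of the wild-type PBS arrays (adjusted p 0.0573 to 0.107) or without wild-type IFN-β replicate 1 (adjusted p = 0.0503). It passed under 11 of the 24 alternatives run. A_52_P570717, which overlaps it with the 2 differences shown in capitals, had a difference of -0.45 (adjusted p = 0.294), and the brightest probe, A_52_P683598, one of 0.02 (adjusted p = 0.956). After IFN-β the differences of the 4 probes, in the same order, were 1.66, 1.24, -0.06 and 0.41, and all but the third passed. The call of A_52_P683598 (adjusted p = 0.0334) was lost without any 1 of the 3 Ifnar2-/- IFN-β arrays (adjusted p 0.0579 to 0.0703) and without wild-type IFN-β replicate 1 (adjusted p = 0.0946) or 2 (adjusted p = 0.092).

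Within an array the difference between 2 probes of a gene does not depend on scaling, so it was compared between the 6 Ifnar2-/- and the 6 wild-type arrays. For H2-Aa, A_51_P119760 minus A_52_P343306 lay between -0.30 and 0.00 on the Ifnar2-/- arrays and between 2.27 and 2.58 on the wild-type arrays. For H2-Ab1, A_51_P215242 minus A_52_P570717 lay between 0.97 and 1.19 on the Ifnar2-/- arrays and between -0.33 and -0.20 on the wild-type arrays. Neither pair overlapped between genotypes (two-sided exact permutation test, p = 0.00216, the smallest that 6 against 6 allows, adjusted p = 0.00324 over 9 pairs). All 7 pairs within H2-Aa and H2-Ab1 passed that test, with adjusted p 0.00324 to 0.00557. The pair within H2-DMb2 (adjusted p = 0.175) and the pair within H2-Oa (adjusted p = 0.0657) did not. So for H2-Aa and H2-Ab1 the sign or size of the genotype difference depended on which 60 bases were read, and no level of either gene can be compared between the genotypes from these probes. H2-Ob has a single probe, so whether its difference also depends on the bases read was not tested.

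**Figure D3:**
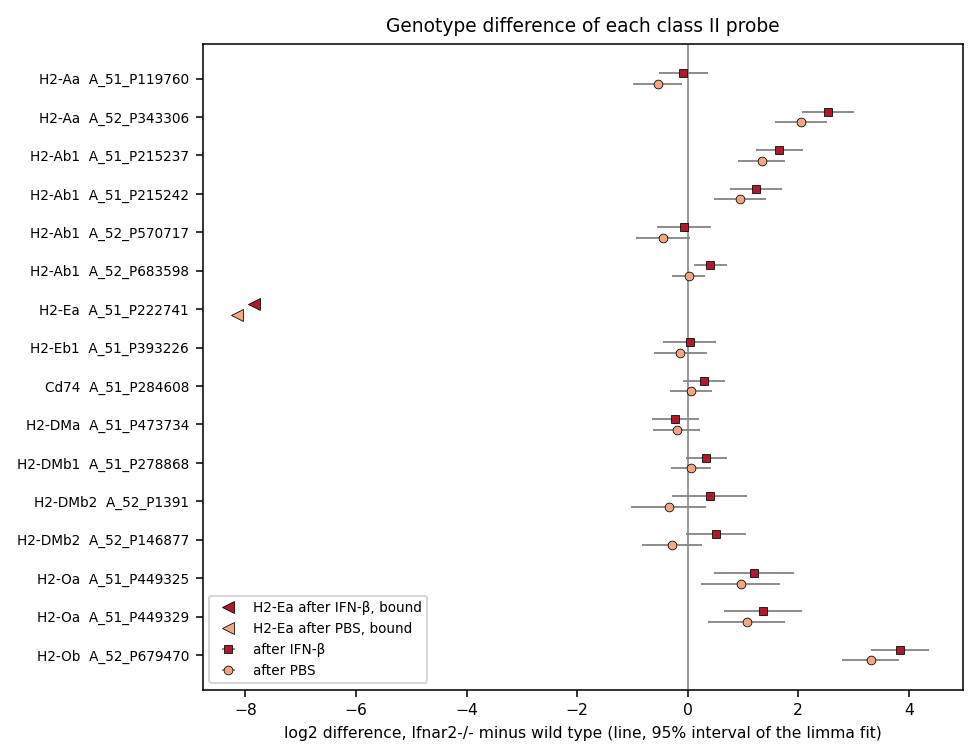
Log2 difference, Ifnar2-/- minus wild type (horizontal axis), of each of the 16 class II probes after IFN-β (squares, upper of each pair) and after PBS (circles, lower of each pair), with the 95% interval of the limma fit as a line. H2-Ea, at background in Ifnar2-/-, is drawn as a triangle at its bound under the main processing (at least 7.84 lower after IFN-β and 8.15 after PBS). H2-Ob lies at 3.84 and 3.31, and the probes of H2-Aa and H2-Ab1 are spread on both sides of 0.

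The readings of the remaining members were near each other in the 2 genotypes after PBS. H2-Eb1 averaged 5.08 ± 0.35 in Ifnar2-/- cells and 5.21 ± 0.35 in wild type (SD, n = 3 each), a difference of -0.13 with a 95% interval of -0.61 to 0.35. Cd74 averaged 7.28 ± 0.28 and H2-DMb1 5.07 ± 0.25 in Ifnar2-/- cells, against 7.22 ± 0.29 and 5.01 ± 0.21 in wild type, each a difference of 0.06. H2-DMa differed by -0.20 and H2-DMb2 by -0.28. None of these 5 genes passed at either treatment, and, by their brightest probes, their 95% intervals after PBS lay within -0.83 and 0.44. H2-Eb1, Cd74, H2-DMa and H2-DMb1 each have a single probe, so whether their readings depend on the bases read was not tested.

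Counted by the brightest probe, 1 of 10 genes was called higher in Ifnar2-/- cells after PBS (H2-Ob) and 1 lower (H2-Ea), where 4.53% of all probes were called, 2.51% higher and 2.02% lower. After IFN-β 3 were counted as higher (H2-Ab1, H2-Oa and H2-Ob) and 1 as lower (H2-Ea), where 38.9% of all probes were called, 20.6% higher and 18.2% lower. H2-Ab1 enters this count by 1 of its 4 disagreeing probes, so its level is not shown to be higher. Of the 16 member probes, 6 lay higher without overlap after PBS and 1 lower, against 14.1% and 14.9% of all probes, and after IFN-β 9 lay higher and 1 lower, against 24.7% and 22.3%. The H2-Ea probe, listed for its difference, is counted in each of these. After PBS, genotype and slide cannot be told apart within any slide. After IFN-β, on slide 2 with 1 Ifnar2-/- array against 2 wild-type arrays, H2-Ob differed by 3.51, H2-Aa A_52_P343306 by 2.49 and H2-Oa by 1.40, the same directions as over all arrays. A fixed slide block kept H2-Ob's difference after PBS at 3.05 but not its call (adjusted p = 0.0553). After IFN-β the same block kept H2-Ob's call but not those of H2-Oa and H2-Ab1, by their brightest probes. H2-Aa A_52_P343306 and H2-Ab1 A_51_P215237 each passed after PBS under 23 of the 24 alternatives run.

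Genotype differences were called for a larger share of probes near the members than elsewhere on chromosome 17. Within 0.25 Mb of the H2-Ea probe, by the design's mm7 positions, 9 of 24 tested probes were called after PBS (37.5%), of which 5 belong to members, H2-Ea among them. Among the 11 probes there that are not of members, 4 were called (36.4%). The share was 9.15% of 142 probes at 0.25 to 1 Mb, 6.15% of 179 at 1 to 5 Mb, 2.21% of 498 at 5 to 20 Mb and 3.5% of 429 beyond. The called probes near H2-Ea include both of H2-Eb2, a class II beta gene outside the set, at -4.01 and -4.61 in Ifnar2-/- cells against -7.52 and -8.10 in wild type. The wild-type means lie under the lowest signal well above background on any array (-6.66), so no fold is given. The others were Tap2, a subunit of the class I peptide transporter (1.69 higher in Ifnar2-/-, adjusted p = 6.76e-05), and a probe named by the transcript ENSMUST00000095342, whose wild-type mean of -8.19 also lies under that limit. The H2-Eb2 probes and that of ENSMUST00000095342 could not pass the filter through the wild-type PBS arrays. They were kept for their signal in other groups, so their calls add no support to the share near H2-Ea. The distances and the neighbours named were chosen with results known, neighbouring probes are not independent, and the shares carry no test. The 24 probes leave out H2-Aa A_51_P119760 and H2-Ab1 A_52_P570717, neither called after PBS, because their positions were not used.

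**Figure D4:**
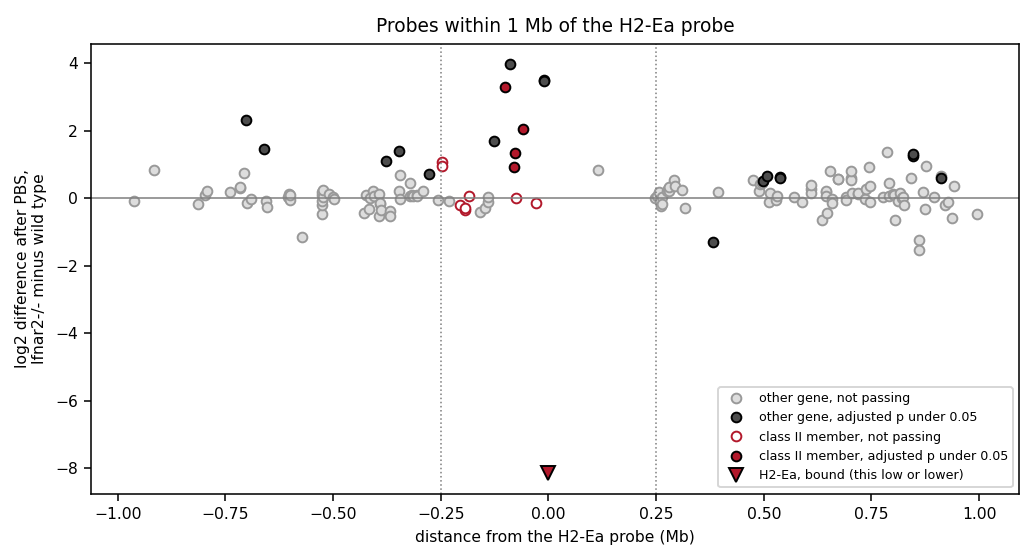
Log2 difference after PBS, Ifnar2-/- minus wild type (vertical axis), of each tested probe by its distance from the H2-Ea probe in Mb (horizontal axis; dotted lines at 0.25 Mb on either side), with class II members in red and other genes in grey or black. Called members and called neighbours lie together just to the left of the H2-Ea probe. H2-Ea itself is drawn as a triangle at its bound under the main processing, at least 8.15 lower. The 3 highest points, both H2-Eb2 probes and ENSMUST00000095342, have wild-type means below the background limit, so their heights are not measured sizes.

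The third point is how the members varied among mice of 1 group. Once each gene's group mean was removed, the 9 members other than H2-Ea rose and fell together across arrays. The correlation of these deviations over 12 arrays lay between 0.27 (H2-DMa with H2-Ob) and 0.94 for the 36 pairs, with a median of 0.76. These are descriptions over arrays that share the scaling, with 8 residual degrees of freedom, and carry no p. The lowest arrays were Ifnar2-/- PBS replicate 3, where all 9 members were below their group mean (mean deviation -0.37), and wild-type PBS replicate 2, where all 9 were too (-0.29). The highest was wild-type PBS replicate 3 (0.25), above the mean for all 9.

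Markers of other cells were set beside this. The cells gave signal from lists for both main cell types of the cavity, with large peritoneal macrophage markers, 17 genes, summing to 1110 to 1310 on wild-type IFN-β arrays and 721 to 984 on wild-type PBS arrays. Of these 17, 4 were called higher and 3 lower, and their median difference was 0.10. Over all probes the shares called in wild type were 18.5% higher and 21.5% lower. The mean deviation of 16 B cell markers, among them Ms4a1 and Cd79b, was -0.47 on Ifnar2-/- PBS replicate 3, -0.41 on wild-type PBS replicate 2 and 0.29 on wild-type PBS replicate 3. Over the 12 arrays it followed the class II mean with Pearson's r = 0.97 and Spearman's rho = 0.94, and r = 0.93 without the 2 arrays farthest from the median. For T and NK cell markers r was 0.61 (rho 0.48, and 0.39 without the 2 farthest), for dendritic cell markers 0.47 (rho 0.59, and 0.73) and for large peritoneal macrophage markers -0.39 (rho -0.37, and -0.66). These are 4 of 9 marker lists compared, and the other 5 lay between -0.32 and 0.29. Each slide held 4 arrays, too few for a value within slides. In bulk samples, fewer cells of a type and less RNA per cell cannot be told apart.

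**Figure D5:**
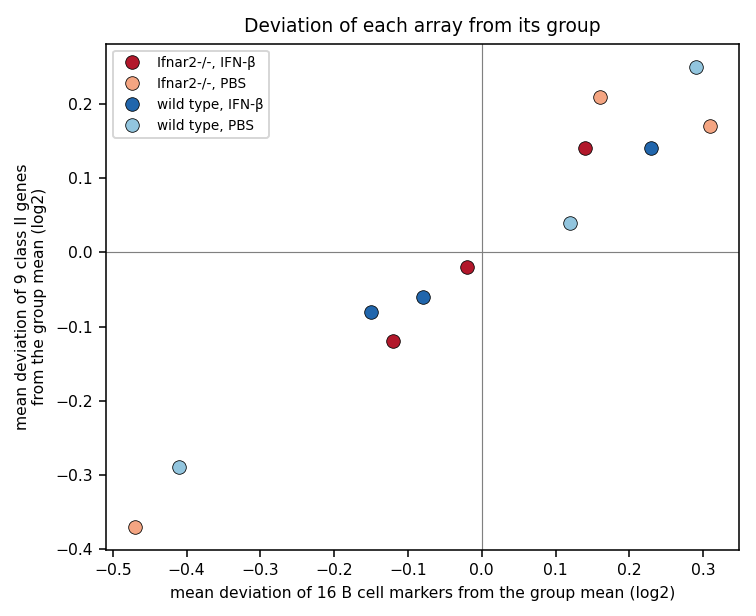
Mean deviation of 9 class II genes from their group mean (vertical axis, log2) against that of 16 B cell markers (horizontal axis, log2), 1 point per array, coloured by group. The points run along 1 line, from Ifnar2-/- PBS replicate 3 at -0.47 and -0.37 to wild-type PBS replicate 3 at 0.29 and 0.25.

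Part of the B cell list was lower in wild type after IFN-β. Its summed level overlapped, at 294 to 383 on the IFN-β arrays and 297 to 450 on the PBS arrays, and its mean log2 level was 2.04 to 2.42 against 2.57 to 3.28. Of the 16, 6 fell in wild type (Fcer2a by 2.45, Ebf1 by 2.21, Cr2 by 2.09, Blk by 1.48, Fcmr by 1.19 and Fcrla by 1.15) and none was called in Ifnar2-/- cells. That is 37.5% of the list, where 21.5% of all probes were called lower in wild type. The other 10 were not called, among them Ms4a1 at 0.16, Cd79b at -0.35, Pax5 at -0.06 and Cd22 at 0.10, examples chosen after their values were seen. The part of B cells in the decline of H2-DMb2, H2-DMb1 and H2-Ob was not tested. Dendritic cell markers, 11 genes, summed to 23.7 to 47.9 on wild-type IFN-β arrays and 14.8 to 18.8 on PBS arrays, and monocyte markers, 9 genes, to 482 to 530 and 233 to 261. The summed levels of both lists were thus higher after IFN-β, although 3 of the 11 dendritic cell markers were called lower and 2 higher. T and NK cell markers, 14 genes, summed to 7.93 to 8.44 on wild-type IFN-β arrays and 9.64 to 11.4 on PBS arrays, with 6 called lower and 2 higher. Mesothelial markers, 8 genes, summed to 1.03 to 1.24 and 1.85 to 2.25, with 4 called lower. The part of these cells in the decline was not tested either. Beside the counts of these lists, 21.5% of all probes were called lower in wild type and 18.5% higher. Between genotypes after PBS no B cell marker was called, where 4.53% of all probes were. The summed level of the B cell markers was 296 to 431 in Ifnar2-/- cells and 297 to 450 in wild type.

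Because most members moved together, their promoters were read for the X and Y boxes. RefSeq promoters of build GRCm38.p6, a C57BL/6 reference and not the strain of these mice, cover 250 bases before to 50 after the start of 7 members. An X box was sought by the letters that all 4 of the longer capital runs shown have at the same positions, with any base between them, and a Y box by TGATTGG. Both were sought on both strands, and the letters were chosen with the member promoters in view. Both boxes were found for 4 members, and the stretches shown lie before the start site, with X-box and Y-box letters in capitals and the distance from the start given beside each.
H2-Eb1, chr17:34305769-34305818, plus strand, -98 to -49: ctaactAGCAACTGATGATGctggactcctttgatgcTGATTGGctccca
H2-Ob, chr17:34238811-34238858, plus strand, -94 to -47: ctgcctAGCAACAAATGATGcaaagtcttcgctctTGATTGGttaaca
H2-DMb1, chr17:34153090-34153140, plus strand, -101 to -51: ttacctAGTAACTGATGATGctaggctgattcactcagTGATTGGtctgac
H2-DMb2, chr17:34145119-34145169, plus strand, -130 to -80: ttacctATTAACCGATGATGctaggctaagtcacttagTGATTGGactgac
The 2 sets of letters do not overlap and are 15 to 18 bases apart. Of 32851 promoters, 14 hold the X-box letters (0.0426%), 2568 hold the Y-box letters (7.82%) and 4 hold both, which are the promoters that the X-box letters were taken from, so their holding them is no finding. H2-Aa and H2-Oa, not used to set the X-box letters, hold the Y-box letters alone, and neither H2-DMa promoter holds either. The X-box letters demand every base that the 4 promoters share, so lacking them does not show that an X box is missing. Of the 4 genes with both boxes, 3 were called lower in wild type after IFN-β, and H2-Eb1, which differed by -0.18, was not. Since the X-box letters were set from these 4 promoters, this is no comparison of boxes with the response.

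Genes with the pattern most like a member's were sought over all 12 arrays. For H2-Ea the 5 nearest were Klra1, an NK cell lectin receptor (r = 0.991), Atp6v0e2 (0.991), BC020150 (0.989), Orm3 (0.987) and Ccm2l (0.985). The arrays form 2 clusters by genotype for these genes, so r restates that split. Klra1 averaged -6.97 and -7.40 in Ifnar2-/- cells after IFN-β and PBS, and -2.24 and -1.99 in wild type. Its Ifnar2-/- means, and those of Ccm2l (-6.98 and -6.91), lie under the lowest signal well above background on any array (-6.66). They are background readings and not measured levels. For the mean of H2-Aa, H2-Ab1, H2-Eb1 and Cd74 the nearest were Fcho1 (0.922), Dtnb (0.921), 2010309G21Rik (0.916), S1pr4 (0.90) and Agap2 (0.90). By deviations from group means they were Dcbld1 (0.976), Mrgpre (0.95), Acap1 (0.947), Prkd2 (0.947) and Rbm38 (0.94).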

How the data were processed

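Total RNA of peritoneal exudate cells was labelled with Cy3 and hybridised to 12 arrays of 43379 non-control spots, 3 arrays per group. Agilent Feature Extraction 9.5.3.1 made the deposited intensity values (the processed signal), per the submitters' processing notes. The deposited value table of the series repeats them: of 45018 values per array, 0 differed. Here spots flagged as outliers were left out, spots of a probe averaged, and log2 of the deposited intensity taken minus each array's 75th percentile. Probes were kept that had values on 6 or more arrays and, in some group, stood well above background on each of its 3 arrays. The 4 group means were fitted with limma 3.58.1 in R 4.3.3 over all arrays, with two-sided tests and Benjamini-Hochberg adjustment over all 27715 kept probes, and the fit was tested on simulated data. Depth has no meaning on arrays, and 3 arrays per group limit the precision.

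Every member and probe is named; of other lists, genes that passed and those of largest difference, with the regulators and processing genes listed beforehand. The members, lists and tests were chosen with earlier results of these data known. Symbols of other genes were updated through RefSeq accessions (22951 probes), older symbols (3109) or current symbols (6659), and 8455 keep the file's name. Alternatives covered scaling, background, filter, probe choice, slide, replicate block and leaving out each array. Probe positions that the files write with leading zeros were not used. Not every gene of the other lists is reported here by name.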

Additional observations from a re-analysis of the deposited data

How the results depend on the processing

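The count of members called stayed within 1.5 times under most alternatives. For IFN-β against PBS in wild type (3 genes lower) it was 5 with no scaling, with quantile normalization and with an intensity trend, and 1 with slide as a fixed block; leaving out 1 array gave 1 to 5. For the response difference (0) it was 1 with no scaling. For Ifnar2-/- against wild type after PBS (2) it was 1 with slide as a fixed block and 1 when each of the 12 arrays had to stand well above background, where H2-Ea is not tested; leaving out 1 array gave 2 throughout. After IFN-β (4) it was 7 unscaled and 2 with the fixed slide block; leaving out 1 array gave 2 to 4. In Ifnar2-/- cells it was 0 under every alternative run. Leaving out the 4 arrays of slide 3, an alternative chosen after seeing the data, gave counts within 1.5 times, with 1 array left in each Ifnar2-/- group and assumed to vary like the others. The only sign that turned into a call was that of H2-Aa after IFN-β between genotypes: the mean of its probes gave 1.23 (adjusted p = 0.000834), against -0.08 by the brightest, because the mean takes in the probe that reads higher. H2-DMb2 in wild type passed under all 26 alternatives (-1.21 to -0.86), H2-DMb1 under 23 and H2-Ob under 19. Without scaling the median of all probes moved to -0.21 for the wild-type response, 0.31 for the response difference and 0.43 for genotypes after IFN-β, and the share of called probes that were higher was 31.7%, 71.6% and 79.9%, against 46.3%, 47.7% and 53.1%. The replicate block left the counts at 3, 0, 0, 2 and 4. Same-numbered arrays deviated with r between -0.12 and 0.49, and no comparison had all 3 pairs over 0.1. In Ifnar2-/- cells IFN-β with PBS gave 0.49, 0.18 and 0.09, and those same-numbered arrays also share slides. So pairing by number was not shown, and these values cannot settle it.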
